A study of Mus musculus with 6 samples.

Results

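The small heat shock proteins studied here are the products of Hspb1, Hspb2, Hspb6, Hspb7, Hspb8 and Cryab, 6 genes taken by symbol from 12389 genes measured in cultured aortic smooth muscle cells. The cells grew out of explants of mouse thoracic aorta and were harvested untreated at passage 6 or below. There were 3 wild-type (WT) libraries and 3 libraries from mice with a smooth muscle-specific knockout of LRRC8A (KO), an essential part of volume-regulated anion channels; the labels call the replicates of each genotype independent, and they are named WT1 to WT3 and KO1 to KO3 after their titles. The sources used here do not name the promoter that drove the deletion, the strain or the age of the mice, and the genotype field reads wild type for every sample, so the titles set the groups. The series set out to look for transcriptional changes tied to inflammation, hypoxia, metabolism and stress. The members were chosen by gene family, with the KO against WT differences of these same libraries already known, so their differences between genotypes are described and not used as evidence.

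Small heat shock proteins share an alpha-crystallin domain and bind unfolding proteins without using ATP, holding them until the ATP-driven chaperones refold them or autophagy removes them. In smooth muscle they also act on the contractile apparatus. HSPB1, called HSP25 in the mouse, modulates actin filaments when kinases of the stress-activated MAPK pathway phosphorylate it. HSPB6, also called HSP20, is a target of cyclic nucleotide-dependent kinases during relaxation. Alpha B-crystallin, the product of Cryab, protects intermediate filaments, and HSPB8 works with the co-chaperone BAG3 in clearing damaged filamin. HSPB2 and HSPB7 are best known from heart and skeletal muscle.

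Values are reads scaled by library as deposited. Estimated depth was 45.3 M reads in WT3 and 47.9 M in KO3, against 31.0 to 35.9 M in the other libraries. Lrrc8a, the deleted gene, had 1221 to 2578 scaled reads in WT and 506 to 868 in KO, so the groups did not overlap. The smooth muscle gene Acta2 had 10651 to 130984 scaled reads. Myh11 was low outside WT3, with 90.1 in WT1, 152 in WT2 and 1656 in WT3, against 41.7 in KO1, 20.8 in KO2 and 96.8 in KO3. For Acta2, Cnn1 and Tagln replicate 3 was the highest library of each genotype. Mylk, Myocd and the intermediate filament gene Des were not analysed here.

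All 6 members passed the filter on low values, which kept genes with 10 or more scaled reads in 3 or more libraries. Per kilobase of annotated exon, Cryab was the most abundant, with 8559 scaled reads per kb on average in WT and 5767 in KO. It lay above 98.3% of 12359 genes on that scale. Hspb1 followed at 4239 and 2077 scaled reads per kb, then Hspb8 at 1941 and 1990. Hspb2 (284 and 249), Hspb6 (175 and 284) and Hspb7 (114 and 74.1) formed a lower tier near or below the middle of all genes. Cryab exceeded Hspb1 in all 6 libraries, although their ranges over libraries overlapped. Hspb8 exceeded Hspb2 without any overlap, at 1632 to 2564 against 93.3 to 393 scaled reads per kb. Hspb1 and Hspb8 overlapped and kept their order in 4 of 6 libraries, Hspb2 and Hspb6 likewise in 4, and Hspb6 and Hspb7 in 5. The plot of scaled reads by library shows the 6 genes in this order.

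**Figure D1:**
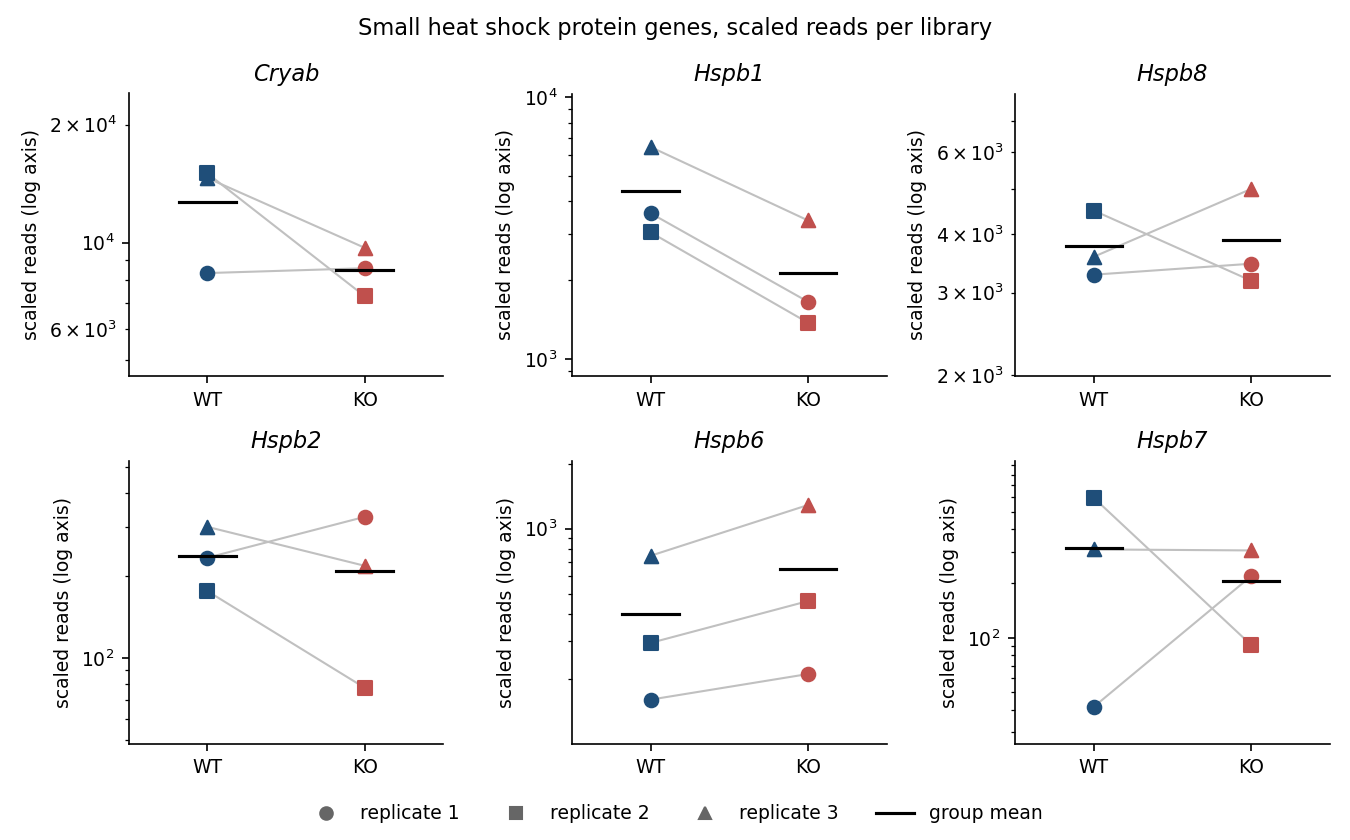
Scaled reads of each gene (vertical log axis) in WT and KO libraries; circles, squares and triangles are replicates 1, 2 and 3, grey lines join libraries with the same number and black bars are group means (n = 3 each). Hspb1 is lower and Hspb6 higher in KO along every line, with replicate 3 the highest library of each group, while the lines of Hspb7 cross.

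Hspb1 (ENSMUSG00000004951, GRCm38 chromosome 5, 135887919 to 135889563, plus strand) had 3607 scaled reads in WT1, 3049 in WT2 and 6456 in WT3, against 1658 in KO1, 1379 in KO2 and 3388 in KO3. KO3 exceeded WT2, so the groups overlapped, but each KO library lay below the WT library of the same number. WT averaged 4371 ± 1828 and KO 2142 ± 1088 (SD, n = 3 each). On the log2(value + 2) scale, which understates changes of low genes, the KO minus WT difference was -1.06 (SE 0.42) in limma. The differences within pairs were -1.12, -1.14 and -0.93, a narrow range beside a gene whose 6 libraries span 4.68-fold. Hspb1 was the 1 member of 6 that was lower in KO in all 3 pairs, and 15.0% of all genes tested met that description.

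Reads of Hspb1 could not be fully separated from those of a processed copy. Hsp25-ps1 (ENSMUSG00000078915, chromosome 13, 45078498 to 45079127, minus strand) is annotated in GENCODE M21 as a processed pseudogene, an intronless copy of the coding sequence. A local alignment of the 630 coding bases of transcript Hspb1-201 with the copy gave 99.4% identity, with 4 mismatches and an identical run of 552 bases. Counted from 1 at the A of the start codon, with the Hspb1 base first, they were C6T, G559A, T561C and T609C. The stretches that hold the mismatches are shown because they are all that tells the copies apart within the coding sequence. Capitals mark the mismatched bases in coding bases 1 to 60 and then 541 to 630.
Hspb1 start: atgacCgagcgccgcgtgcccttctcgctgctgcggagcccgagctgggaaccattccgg
Hsp25-ps1 start: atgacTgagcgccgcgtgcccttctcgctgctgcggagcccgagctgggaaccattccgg
Hspb1 end: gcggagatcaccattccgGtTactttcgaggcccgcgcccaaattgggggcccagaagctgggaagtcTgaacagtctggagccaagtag
Hsp25-ps1 end: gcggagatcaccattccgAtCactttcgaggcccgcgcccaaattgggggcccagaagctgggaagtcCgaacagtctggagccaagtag

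Of all 100-base stretches of Hspb1-201, 56.3% occur without a mismatch in the copy. Hsp25-ps1 was credited with 2605 scaled reads in WT1, 2307 in WT2 and 4092 in WT3, against 978 in KO1, 964 in KO2 and 2151 in KO3. That was 59.0% to 75.7% of the Hspb1 value of the same library. The copy therefore followed Hspb1 from library to library, and how the counting divided shared reads is not stated in the labels. For the copy alone the groups did not overlap, with a log2 difference of -1.20 (SE 0.38). Summed, both averaged 7372 ± 2784 in WT against 3506 ± 1767 in KO (SD, n = 3 per genotype). Its log2 difference was -1.12, with -1.24, -1.19 and -0.93 in pairs 1 to 3. The genotype difference was thus of similar size for Hspb1, for the copy and for their sum. Shared reads may have been divided between them, so these values are not independent. They cannot show whether the difference belongs to Hspb1 alone, and the level of Hspb1 alone remains uncertain.

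**Figure D2:**
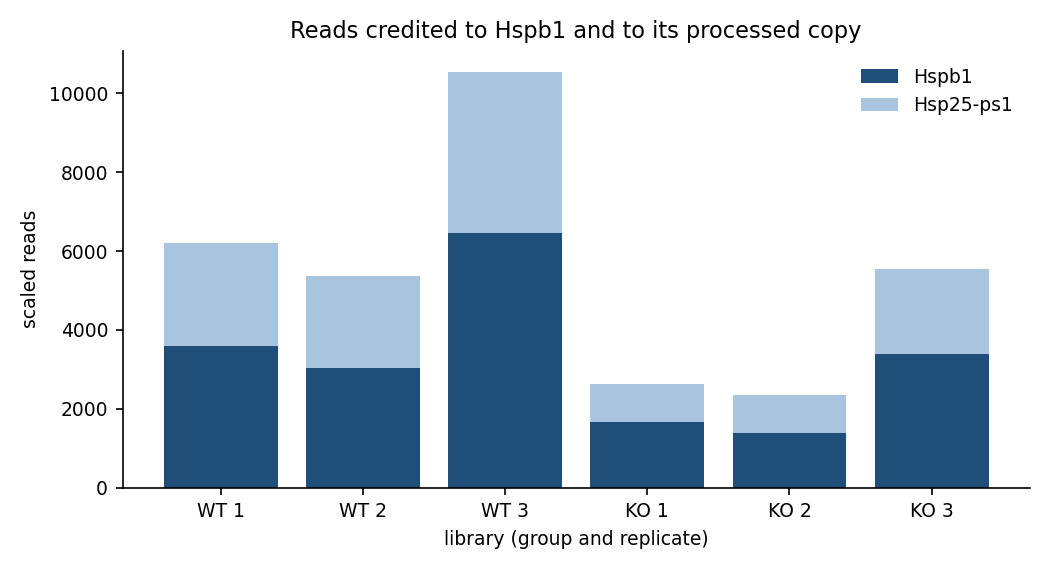
Scaled reads (vertical axis, from 0) credited to Hspb1 (dark) and stacked on it to Hsp25-ps1 (light) in each of the 6 libraries. The copy takes 59.0% to 75.7% of the Hspb1 value, and the stacked total is lower in each KO library than in the WT library of the same number.

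Markers of other cell types varied beside this difference. Of 7 leukocyte markers 3 were measured, Csf1r, Lyz2 and Cd68, and their sum was 1233 to 1594 scaled reads in WT and 392 to 1197 in KO, so the sums did not overlap. Lyz2 had 300 to 693 in WT and 97.3 to 269 in KO, without overlap. Csf1r had 587 to 858 in WT, against 212 in KO1, 441 in KO2 and 899 in KO3. Its KO1 and KO2 values lay below every WT library, and KO3 was the highest of all libraries. The remaining members, Ptprc, Adgre1, Cd3e and Itgam, were not analysed here. The 5 measured of 8 epithelial and mesothelial markers summed to 5562 to 9936 in WT and 1098 to 6769 in KO, overlapping. Of 14 striated muscle markers Tnnt2 alone was measured, at 17.5 to 327 in WT and 80.9 to 306 in KO. All 6 adventitial fibroblast markers were measured and summed to 7688 to 29523 in WT and 10700 to 24687 in KO, also overlapping. Within that sum Dpt ran from 305 in KO3 to 15301 in WT1, and Pdgfra from 729 in WT3 to 15182 in KO3. The 2 measured of 7 endothelial markers summed to 94.9 to 461 in WT and 116 to 463 in KO. S100b, of 5 Schwann and neural crest markers, had 43.5 to 239 in WT and 9.25 to 529 in KO. Fabp4, of 5 adipocyte markers, had 28.5 to 1427 in WT and 17.8 to 66.3 in KO. The part of these cells in the Hspb1 values was not tested, and in bulk RNA fewer cells of a type and less RNA per cell cannot be told apart.

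Cryab (ENSMUSG00000032060, chromosome 9, 50751325 to 50756636, plus strand) had 8357 scaled reads in WT1, 15009 in WT2 and 14612 in WT3, against 8598 in KO1, 7294 in KO2 and 9694 in KO3. WT replicates 2 and 3 stood above the other 4 libraries, and WT1 lay among the KO libraries. The group means were 12659 ± 3731 and 8529 ± 1202 (SD, n = 3 each), a log2 difference of -0.53 (SE 0.29). Without WT1 the difference was -0.81, and without both libraries numbered 2 it was -0.28. Cryab alone made up 48.7% to 63.5% of the reads of the 6 members in every library.

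Hspb2 (ENSMUSG00000038086, chromosome 9, 50751078 to 50752354, minus strand) lies head to head with Cryab on the opposite strand. The 2 gene spans overlap by 1030 bases, and 252 exonic bases, 30.2% of those of Hspb2, are also exonic in Cryab. The libraries were stranded, but the labels do not state whether counting used strand, so the Hspb2 values are uncertain beside a partner with far more reads. Hspb2 had 233 scaled reads in WT1, 176 in WT2 and 301 in WT3, against 328 in KO1, 77.8 in KO2 and 217 in KO3. The highest and the lowest library were both KO, and the groups overlapped throughout. The log2 difference was -0.38 (SE 0.56), and it became 0.21 without KO2. The pair did not follow each other closely, with a Pearson r of 0.37 over 6 libraries on the log2 scale, a description of libraries that share replicate numbers and depth.

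Hspb6 (ENSMUSG00000036854, chromosome 7, 30552178 to 30555443, plus strand) had 161 scaled reads in WT1, 295 in WT2 and 748 in WT3, against 212 in KO1, 461 in KO2 and 1285 in KO3. Values depended far more on the replicate number than on genotype, and both libraries numbered 3 stood above the other 4. Each KO library was above the WT library of its number, by 0.39, 0.64 and 0.78 on the log2 scale. The mean difference was 0.60 (SE 0.79). Hspb6 was the 1 member higher in KO in all 3 pairs, beside 15.7% of all genes tested. Without KO3 the unpaired difference was -0.075 and without KO1 it was 1.22. Of the Hspb6 exonic bases 122 overlap exons of Proser3 on the opposite strand, or 5.31%. Proser3 had 72.3 scaled reads in WT1, 106 in WT2 and 150 in WT3, against 125 in KO1, 164 in KO2 and 362 in KO3. It was thus also highest in replicate 3 of both genotypes, and its part in the Hspb6 values was not tested.

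Hspb8 (ENSMUSG00000041548, chromosome 5, 116408491 to 116422864, minus strand) was the steadiest member, with a highest value 1.57-fold the lowest. It had 3279 scaled reads in WT1, 4495 in WT2 and 3581 in WT3, against 3460 in KO1, 3183 in KO2 and 5000 in KO3. The means of 3785 ± 633 and 3881 ± 979 (SD, n = 3 each) differed by less than either SD, and the log2 difference was 0.02 (SE 0.24). Hspb7 (ENSMUSG00000006221, chromosome 4, 141420779 to 141425311, plus strand), also the least abundant, was the most variable, with 41.5 scaled reads in WT1, 595 in WT2 and 309 in WT3, against 219 in KO1, 91.3 in KO2 and 305 in KO3. Its lowest library, WT1, held an estimated 35 reads. The extremes were both WT, so the KO libraries lay inside the WT range, and the log2 difference was -0.12 (SE 1.001). Within pairs it ran from -2.68 to 2.35.

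**Figure D3:**
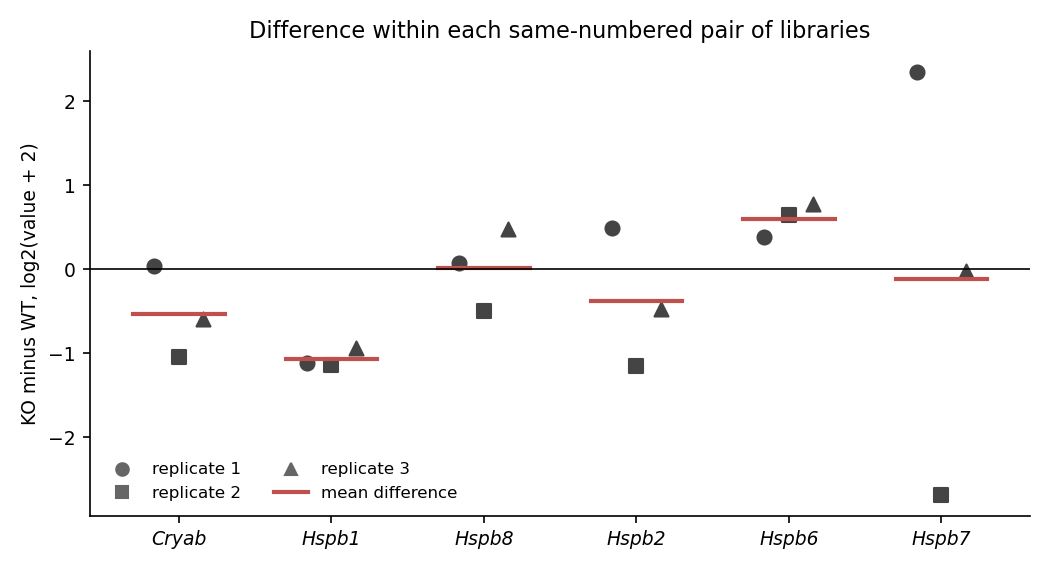
KO minus WT difference on the log2(value + 2) scale (vertical axis) for each gene and each pair of libraries with the same number; red bars are the mean differences. The 3 marks of Hspb1 lie between -1.14 and -0.93 and those of Hspb6 between 0.39 and 0.78, while those of Hspb7 run from -2.68 to 2.35.

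In limma over 12363 genes, 0 of 6 members passed a Benjamini-Hochberg adjusted p of 0.05, and 0.00% of all genes passed. Each member had an adjusted p of 0.999 in limma. The deleted gene Lrrc8a also had an adjusted p of 0.999 in limma, at a log2 difference of -1.51 (SE 0.34). Its FDR in the authors' deposited table was 0.0196. A gene that did not pass in limma is therefore not shown to be unchanged. At an unadjusted p under 0.05 limma gave 1 member, Hspb1, beside 3.62% of all genes. With the replicate number as a block there were 2, Hspb1 and Hspb6, beside 7.42% of all genes, and limma-voom gave 0. With the block the lowest adjusted p in limma was 0.259, for Hspb1, and Hspb6 had 0.631. For 0 of 6 members did the groups not overlap, beside 8.43% of all genes. The median log2 difference of the members was -0.25, with 4 of 6 below 0, beside a median of 0.00 and 49.6% below 0 over all genes. A false discovery rate (FDR) under 0.05 was given to 0 of 6 members and 0.525% of all genes in the authors' deposited table. The authors' deposited table listed Hspb1 at a log2 ratio of -1.03 and an FDR of 0.700.

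The sum of squares of each gene's log2 values over the 6 libraries was divided between genotype, replicate number and the rest. For Hspb1, 51.8% went with genotype, 47.8% with replicate number and 0.417% with neither. For Hspb6 the shares were 8.54%, 90.9% and 0.61%. Over all genes tested the median shares were 10.3%, 54.9% and 22.9%. Cryab had 43.9% with genotype and 30.7% with neither, and Hspb2 67.2% with replicate number. For Hspb7 and Hspb8 most of the variation, 67.7% and 69.0%, went with neither. Thus Hspb1 and Hspb6 repeated their order of libraries in both genotypes, and Hspb7 and Hspb8 did not. No label says what a replicate number marks. The libraries numbered 3 were also the most deeply sequenced of each genotype, and the part of depth in these shares was not tested.

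**Figure D4:**
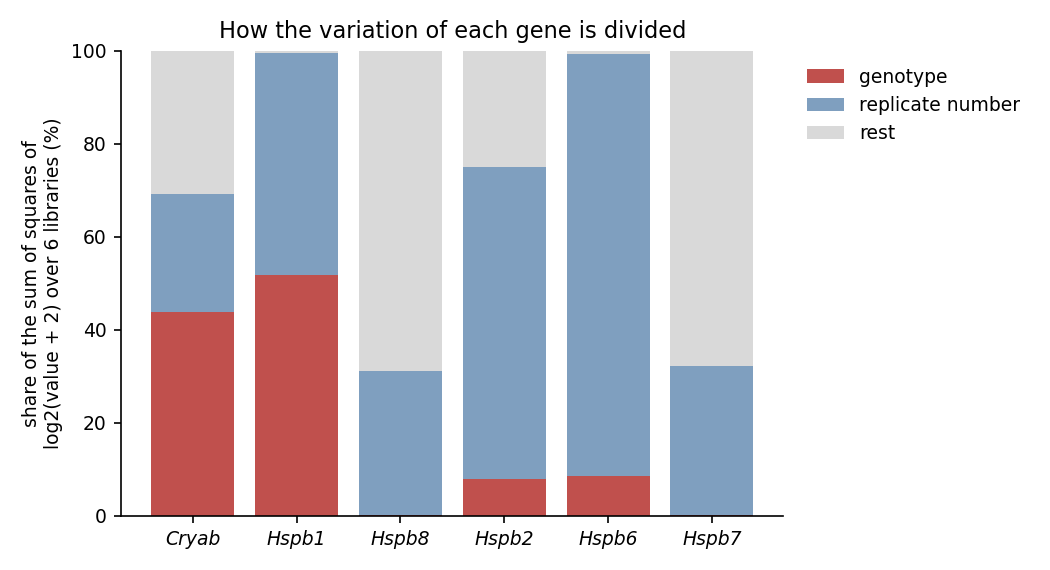
Share of the sum of squares of log2(value + 2) over the 6 libraries (vertical axis, %) that goes with genotype (red), replicate number (blue) and neither (grey), stacked to 100% for each gene. Hspb6 is nearly all blue at 90.9%, Hspb1 is divided between red and blue, and Hspb7 and Hspb8 are mostly grey.

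Across the 6 libraries the closest pairs of members by Pearson r of log2 values were Hspb7 with Cryab at 0.76, Hspb7 with Hspb8 at 0.72 and Hspb1 with Cryab at 0.70. After removing each group's mean, Hspb7 and Cryab reached 0.98 and Hspb1 and Hspb6 0.81. These are descriptions over 6 libraries. The genes most like each member over the 6 libraries, by Pearson r among named genes tested, differed from member to member. They were Cnrip1 (0.99), Hsp25-ps1 (0.99) and Tmed9 (0.98) for Hspb1, of which the copy shares its sequence. For Hspb6 they were Ccne1, Hist1h2ap and Spc25, each at 0.998, and Hist1h2ap belongs to a histone family of near-identical copies, so its own value is uncertain. Ccne1 had 220 scaled reads in WT1, 340 in WT2 and 873 in WT3, against 271 in KO1, 554 in KO2 and 1414 in KO3. They were Gmppb (0.997), Cox19 (0.99) and Rabif (0.99) for Hspb2, Rab3a, Vrk3 and Vps33b (0.98, 0.98 and 0.96) for Hspb7, Csrnp2, Tfe3 and Psmd5 (0.995, 0.99 and 0.97) for Hspb8, and Sar1a, Clint1 and Fxr2 (0.99, 0.98 and 0.98) for Cryab.

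Upstream sequences were compared because Hspb1 and Hspb6 were the 2 of 6 members whose replicate 3 library was the highest in both genotypes, as in 22.5% of all genes. RefSeq promoter sequence of build GRCm38.p6 matched 4 of 6 members, Hspb1, Hspb6 (with 2 starts), Hspb7 and Hspb8, and none is shown for Hspb2 and Cryab. The 250 bases before each start were searched on both strands for GAANNTTC and TTCNNGAA, pairs of the unit bound by heat shock factors, for their 3-unit forms (GAANNTTC followed by NNGAA, or TTCNNGAA followed by NNTTC), which contain the pairs, for TATAAA and for the CArG box bound by serum response factor. GAANNTTC occurred in 2 places in Hspb1 and in 1 place before the second Hspb6 start. No GENCODE M21 transcript began exactly at either Hspb6 start, unlike the starts of Hspb1, Hspb7 and Hspb8. The windows before the first and the second Hspb6 start both lie inside the annotated span of Hspb6. GAANNTTC occurred in 6.72% of 32536 distinct windows of that length, and GAANNTTC or TTCNNGAA in 12.9%. The other members' windows held none of these motifs. TATAAA occurred before the second Hspb6 start alone, beside 12.3% of windows, and the 3-unit forms (0.470% of windows), TTCNNGAA (7.19%) and the CArG box (1.48%) in none of the 5 windows. The stretches with the GAANNTTC matches are shown 5′ to 3′ on the plus strand, from 160 to 61 bases before each start, at chr5:135887759-135887858 and chr7:30553141-30553240, with the matches in capitals.
Hspb1: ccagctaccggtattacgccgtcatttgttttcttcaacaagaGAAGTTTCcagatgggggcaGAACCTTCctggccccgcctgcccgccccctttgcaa
Hspb6: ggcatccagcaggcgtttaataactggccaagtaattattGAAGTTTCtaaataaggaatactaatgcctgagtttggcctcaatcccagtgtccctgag

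A match describes the letters only. GAAGTTTC stood at 117 to 110 bases before the Hspb1 start and at 120 to 113 bases before the second Hspb6 start. Hspb1 also held GAACCTTC at 97 to 90.

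Beside the members, 106 genes of the wider chaperone system and its partners were listed in 11 groups, and 97 were tested. In limma 0 of 97 passed an adjusted p of 0.05, 3 had an unadjusted p under 0.05 where all genes gave 3.62%, and limma-voom gave 0 and 3. With the replicate block 0 passed and 7 had an unadjusted p under 0.05, where all genes gave 7.42%, the additional genes being Ubb, Dnajb14, Prkg1 and Myh11. The 3 found without the block were Serpinh1 (0.79, SE 0.32), the collagen chaperone of the endoplasmic reticulum, Ywhaq (0.55, SE 0.20), an adaptor that binds phosphorylated proteins, and Nes (-1.93, SE 0.63), the intermediate filament nestin, by log2 difference. Serpinh1 had 17393 scaled reads in WT1, 28599 in WT2 and 34267 in WT3, against 44196 in KO1, 38717 in KO2 and 52021 in KO3, without overlap. In the opposite direction Nes had 340 to 1153 in WT and 75.1 to 279 in KO.

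Of 5 other genes listed beside the members, Hspb11 was tested, and its place in the family rests here on its symbol alone. It had 84.2 scaled reads in WT1, 160 in WT2 and 241 in WT3, against 190 in KO1, 295 in KO2 and 145 in KO3, so the groups overlapped. Its log2 difference was 0.44 (SE 0.51).

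The heat shock transcription factors Hsf1 and Hsf2 had log2 differences of -0.05 (SE 0.21) and -0.23 (SE 0.28). Heat-inducible targets of HSF1, 20 tested, had a median difference of 0.02, with 8 below 0 and 12 above. The inducible HSP70 genes Hspa1a and Hspa1b are near-identical, so their split is uncertain. They had -0.025 (SE 0.52) and 0.02 (SE 0.66), with the highest value of Hspa1b, 11860, in WT2. The constitutive Hspa8 had 0.13 (SE 0.26), Hsph1 0.22 (SE 0.37) and the co-chaperones Dnajb1 and Dnaja1 0.02 (SE 0.21) and -0.05 (SE 0.24). Hsp90aa1 and Hsp90ab1 had 0.07 (SE 0.26) and 0.14 (SE 0.27). None of these factors and chaperones had a difference beyond its SE. Cytosolic HSP70 and HSP110 genes had a median of 0.12 over 10 tested, J-domain co-chaperones -0.10 over 15, HSP90 and its co-chaperones 0.11 over 10 and chaperonins 0.10 over 10.

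The co-chaperone partner of HSPB8, Bag3, had 4721 scaled reads in WT1, 6237 in WT2 and 7804 in WT3, against 5249 in KO1, 4752 in KO2 and 7944 in KO3, a log2 difference of -0.07 (SE 0.29). The ubiquitin ligase gene Stub1 had -0.0044 (SE 0.21), the autophagy receptor gene Sqstm1 -0.45 (SE 0.30), Synpo2 -0.78 (SE 0.67), and the filamins Flna and Flnc 0.05 (SE 0.37) and -0.22 (SE 0.36). The BAG and chaperone-assisted autophagy list had a median of -0.08 over 13 tested. Of the kinases that act on small heat shock proteins, Mapkapk2 and Mapk14 had -0.16 (SE 0.28) and 0.03 (SE 0.21). Prkaca and Prkg1, the kinases of cyclic AMP and cyclic GMP signalling, had 0.15 (SE 0.21) and -1.42 (SE 1.08). Prkg1 had 158 scaled reads in WT1, 1240 in WT2 and 2842 in WT3, against 160 in KO1, 305 in KO2 and 584 in KO3, highest in replicate 3 of both groups like Hspb6. Vim, the main intermediate filament gene here, had 0.23 (SE 0.33).

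Smooth muscle contractile and SRF genes had a median log2 difference of -0.32 over 12 tested, and limma gave 0 of them past an adjusted p of 0.05. At an unadjusted p under 0.05 there were 0 without the replicate block and 1 with it, Myh11, which was lower in KO by pair at -1.07, -2.75 and -4.07 and had an adjusted p of 0.491 in limma with the block. Myh11 had -2.63 (SE 1.16), Cnn1 -1.36 (SE 1.80), Tagln 0.56 (SE 1.23) and Acta2 0.14 (SE 1.02). For 10 of the 12 replicate 3 was the highest library of both genotypes, and the same held for 9 of 10 chaperonins, beside 22.5% of all genes tested. The median r of the contractile genes with the members over the 6 libraries was highest for Hspb1 at 0.76 and Hspb6 at 0.67, and lowest for Hspb8 at 0.30. The median r of the chaperonins was 0.92 with Hspb6 and 0.49 with Hspb1. For HSF1 targets it was 0.67 with Hspb6 and 0.04 with Hspb1, and for intermediate filament genes 0.75 and 0.37. Hspb1 and Hspb6 were themselves highest in replicate 3 of both genotypes, so their r with lists of that pattern is not a separate result. Over all genes tested the median r with each member lay between -0.01 and 0.03.

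**Figure D5:**
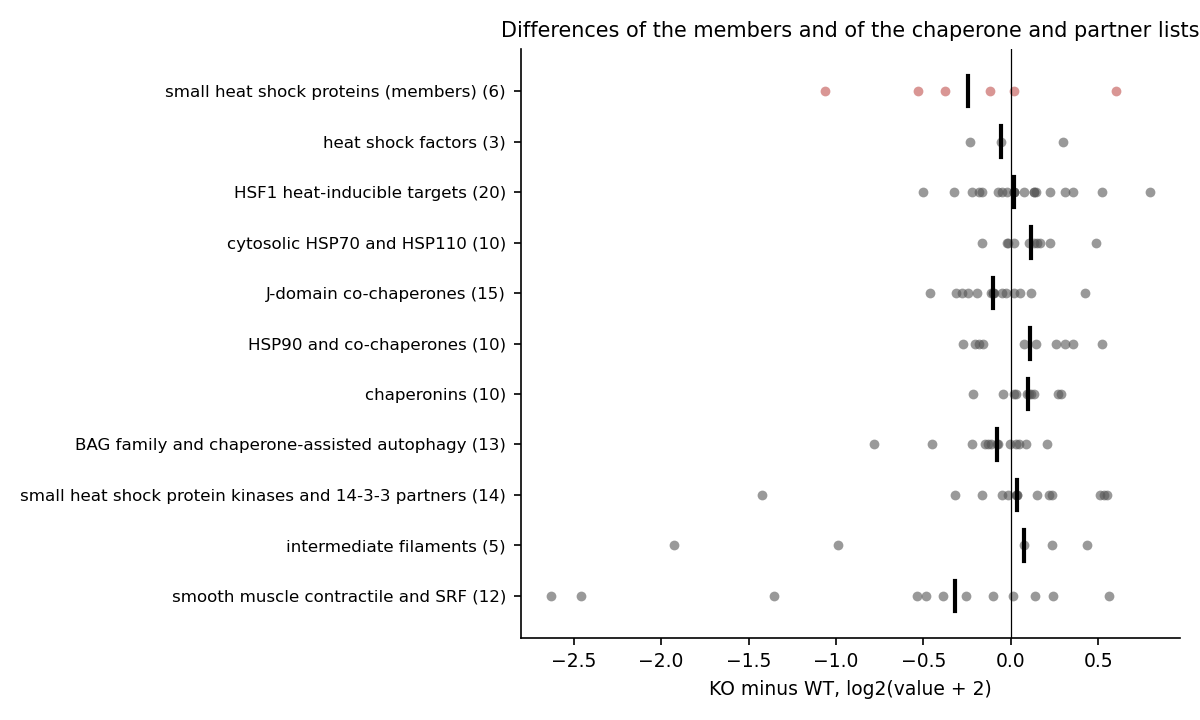
KO minus WT difference on the log2(value + 2) scale (horizontal axis) of each gene in the small heat shock protein group (red) and in the 10 chaperone and partner lists with more than 1 gene tested (grey; Hspb11 is not drawn), with the number of genes in brackets and black bars at the medians. The medians drawn lie between -0.32 and 0.12, and the contractile and intermediate filament lists reach furthest below 0.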

How the data were processed

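Libraries from 6 cultures kept strand information, were selected on poly(A) and read from both ends, per the labels' protocols. The authors used STAR, Partek and DESeq2, per the submitters' processing notes, which name them and GRCm39 and mm39 without roles. Coordinates are GRCm38, since 12341 of 12385 genes share their start with GENCODE M21. The deposited per-library signal is a read count divided by a library factor: 1 read was worth 0.712 to 1.19, and 83.0% to 92.8% of values up to 50 reads were within 0.05 of whole reads, too few to recover counts. The authors' deposited table gives p-value, FDR and log2 ratio per gene. limma 3.58.1 (R 4.3.3, statmod 1.5.0) was fitted to log2(value + 2) with genotype alone, mean trend and robust priors. It covered 12363 genes, two-sided, with Benjamini-Hochberg adjustment. It was tested on simulated data with the same spread for every gene and no replicate effect. That test does not show how the fit performs on these libraries. Deviations of same-numbered libraries from their genotype means correlated across genes at 0.43, 0.15 and 0.39. Such deviations cancel within a genotype, so likeness at a single number also raises the other correlations. Libraries of different numbers were not compared, so these values do not establish a pairing. Numbers were taken as pairs for description, although no label explains them. Lengths are merged exons of GENCODE M21.

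Members and lists were chosen with earlier results of these data known. Named genes were the members, list genes set by role, the 2 with the smallest p in each list where singled out, and the 3 most alike by r. Alternatives were other scalings, filters, pseudocounts, the other deposited table, limma-voom, other priors, library weights, the replicate block and leaving out libraries. Leaving out both libraries of a number was added after seeing the data.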

Additional observations from a re-analysis of the deposited data

How the results depend on the processing

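Members past an adjusted p of 0.05 numbered 0 in limma under each of 22 alternatives, as did list genes. Over all genes the count was 0, except 30 with library quality weights and a range of 0 to 1 when libraries were left out, the 1 being without KO1. The replicate block changed no call at an adjusted p of 0.05, with 0 genes past it. At an unadjusted p under 0.05 the block moved the count from 1 to 2 members, from 3 to 7 list genes and from 447 to 917 of all genes. With the block the SE was 0.16 for Hspb1 and 0.21 for Hspb6. Library quality weights gave 3 members, 18 list genes and 2284 of all genes at that unadjusted threshold. The member count there was 0 with equal totals, with limma-voom and without trend or robust priors. It was also 0 without WT3, KO1, KO2 or both libraries numbered 2. Hspb1 and Cryab stayed below 0 in all 22 alternatives, from -1.45 to -0.74 and from -0.88 to -0.28. The other members changed sign when libraries were left out, and the cause was not tested. Their leave-one-out ranges, including both libraries of a number, were -0.82 to 0.21 for Hspb2, -0.075 to 1.22 for Hspb6, -1.35 to 1.16 for Hspb7 and -0.21 to 0.28 for Hspb8. Hspb2 turned above 0 without KO2 (0.21), Hspb6 below 0 without KO3, Hspb7 above 0 without WT2 (0.67), WT3 (0.20) or KO2 (0.38), and Hspb8 below 0 without WT1 (-0.077), WT3 (-0.013) or KO3 (-0.18). With the weights Hspb8 was -0.35 and Hspb7 -1.88. Estimated reads were under 100 for Hspb7 in WT1 (35) and KO2 (79) and for Hspb2 in KO2 (67).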
